A study of Canis lupus familiaris with 6 samples.

Results

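The genes described here make up the machinery that starts and elongates proteins in canine mammary tumor cells. They were taken by gene symbol and array annotation, not by any measured value: the eukaryotic initiation factors (EIF symbols), the elongation factors (EEF symbols), the release factors ETF1, GSPT1 and GSPT2, and the aminoacyl-tRNA synthetases, the last recognised by the description beside each probe. This gave 88 genes with 177 probes among the 13020 gene symbols of an Agilent canine oligonucleotide array. All 88 were tested, together with 12595 genes in all. A gene was read from its brightest probe, and 51 of the 88 had several probes, up to 10 for EIF4A2. No probe carried the symbols EEF1A2 or EIF4G1.

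The study asked how canine mammary tumor cells change their gene expression when they are grown with myeloid-derived suppressor cells (MDSCs), immature myeloid cells that dampen immune responses. The 3 established lines were P114 from an anaplastic cancer, CMT-U27 from a simple carcinoma and CMT-U309 from a spindle cell tumor, each grown alone (monoculture) or with MDSCs (co-culture) for at least 72 h by the labels, while the study's methods give a shorter time. The MDSCs were sorted from the blood of healthy dogs on Gr1, CD11b and CD33, and a transwell insert kept them apart from the tumor cells, so both populations shared medium only. Each line gave 1 pair of RNAs, which was hybridised to 2 arrays with a colour for each RNA and the dyes exchanged, so there were 6 arrays, 12 channels and 6 RNA samples. The study's methods speak of technical and biological repetitions in the numbers of the arrays and of the lines. No source used here says that a line was grown more than once, so a line is the replicate (n = 3). A p-value for co-culture measures the spread of the ratio between these lines. A p-value for level compares lines over the 6 RNA samples. Its spread is what line and condition leave unexplained in the 2 RNAs of each line, 1 co-culture and 1 monoculture, which are not replicate cultures. Both arrays of a line lay on 1 slide, and a difference between lines cannot be told apart from a difference between slides.

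Translation begins when the EIF2 complex delivers the initiator tRNA to the small ribosomal subunit, helped by EIF1, EIF1A, EIF3 and EIF5. The EIF4 factors bind the mRNA cap and unwind the leader, and EIF5B joins the large subunit. EEF1 brings charged tRNAs, EEF2 moves the ribosome along, and ETF1 with GSPT1 ends the chain. Cells slow this process mainly through phosphorylation of EIF2, which blocks its recharging by EIF2B, and through the EIF4E-binding proteins, which mTOR holds inactive. Those controls act on proteins, and the arrays measured mRNA only.

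Some probe sequences show what was measured and where the annotation needs care. They are 60-base oligonucleotides read from the array files, with positions on the build canFam2 as those files give them. Exon and UTR annotation of that build was not used here. The probes of the paralogous helicases EIF4A1 and EIF4A2 come first, since these genes differed in their pattern over the lines, and the capitals in one EIF4A2 probe mark the codons of its DEAD motif, which 1 of the 177 probes holds.
EIF4A1 (chr9:27576998-27577057, plus strand): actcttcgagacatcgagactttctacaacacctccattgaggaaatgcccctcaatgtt
EIF4A2 (chr34:22364719-22364778, plus strand): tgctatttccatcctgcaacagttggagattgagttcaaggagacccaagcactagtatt
EIF4A2 (chr34:22365897-22365956, plus strand): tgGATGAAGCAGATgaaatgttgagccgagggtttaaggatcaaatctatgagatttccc
Of the 10 EIF4A2 probes, the one most like the EIF4A1 probe, which is not shown and is not the brightest, had 25 of 56 aligned bases in common with it. The EIF4A1 probe lies on another chromosome than the symbol has in the newer RefSeq annotation, as does that of EIF4E2, while 65 other genes matched on the chromosome and 21 of the 88 symbols were not in that annotation.

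The next probes belong to genes with the widest range between lines (EIF1AX, EIF2B5, EIF5) and to EIF5A, whose ratio in co-culture was below 0 in P114 and above 0 in CMT-U309 on both of its probes.
EIF1AX (chrX:15992207-15992266, minus strand): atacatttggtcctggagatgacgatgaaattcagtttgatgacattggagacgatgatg
EIF2B5 (chr34:20053290-20053349, plus strand): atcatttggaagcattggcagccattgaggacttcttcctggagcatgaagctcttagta
EIF5 (chr8:74148328-74149197, plus strand, over a gap in the genome): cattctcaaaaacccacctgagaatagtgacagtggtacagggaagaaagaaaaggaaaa
EIF5A (chr5:35268244-35268483, plus strand, over a gap): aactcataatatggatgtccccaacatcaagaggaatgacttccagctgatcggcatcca
EIF5A (chr5:35268691-35268750, plus strand): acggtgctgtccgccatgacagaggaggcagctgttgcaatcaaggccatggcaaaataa
Of the 177 probes, 43 spanned such a gap.

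The release factor paralogs GSPT1 and GSPT2 are close copies, and the capitals below mark the longest run shared by a probe of each.
GSPT1 (chr6:34004221-34004280, plus strand): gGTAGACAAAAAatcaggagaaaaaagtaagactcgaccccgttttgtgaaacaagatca
GSPT2 (chrX:44271730-44271789, plus strand): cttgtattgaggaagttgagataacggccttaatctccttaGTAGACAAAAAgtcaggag
Their most alike probes, which are also the brightest of each, were equal at 40 of 49 aligned bases, so each may bind RNA of the other gene, and their values below are uncertain in that respect. The GSPT2 probe printed above is not the brightest of that gene, and it was well above background in none of the 12 channels.

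The array data were first checked as a whole. Of the 88 genes, 78 (88.6%) were well above background in all 12 channels, against 61.0% of all genes. Markers followed the labels of the lines in part: EPCAM, an epithelial adhesion molecule, had a log2 level of 15.42 in CMT-U27, 9.18 in P114 and 6.68 in CMT-U309, and 4 of 4 measured mesenchymal markers were higher in P114 and in CMT-U309 than in CMT-U27. Of 8 measured myeloid markers, ITGAM, which encodes CD11b, and LYZ were well above background in none of the 12 channels, and the summed signal of the list ranged from 150.2 to 12407 over co-cultures and from 197 to 7077 over monocultures, with S100A8 at 13.06 in CMT-U27. The part of other cells in the results was not tested. The exchanged-dye arrays of P114 did not repeat each other: after both were turned to co-culture over monoculture, their log2 ratios correlated over all probes with r = -0.39, against 0.26 in CMT-U27 and -0.09 in CMT-U309. Over the 88 genes these values were 0.07, 0.32 and 0.08, the last over 86 genes. The mean ratios of P114 correlated with those of CMT-U27 and CMT-U309 with r = -0.08 each, while CMT-U27 and CMT-U309 correlated with r = 0.58. These are descriptions across probes, which share arrays and dyes and are not independent. Results of the 3 lines are therefore given with and without P114. That choice was made on the same ratios that were then tested, so calls without P114 are not an independent result.

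Co-culture with MDSCs moved no gene of the translation machinery past the thresholds of the study's methods, an unadjusted p under 0.05 with a change of over 2-fold. Over all genes 0.635% passed as higher and 0.159% as lower. At an adjusted p under 0.05 (limma, Benjamini-Hochberg over 40874 probes) 0 of the 88 genes and 0% of all genes were called, the smallest adjusted p being 0.498 among the 88 genes and 0.230 over all probes. At an unadjusted p under 0.05 stood 2 of the 88 (2.27%), EIF4EBP1 and GSPT2, both higher in co-culture, against 9.45% of all genes. With the 6 arrays fitted separately and the replicate block, which here pairs arrays of one dye orientation, 7 genes had an unadjusted p under 0.05 and none an adjusted p under 0.05. Co-culture minus monoculture on the log2 scale had a median of 0.0010 over the 88 genes and of 0.0021 over all genes. The 88 genes lay closer together than all genes: with the 5% at either end left out they ran from -0.25 to 0.21, against -0.46 to 0.56, and 87 of 88 lay within 0.5 of 0. Among genes well above background the range of all genes was also narrower, from -0.27 to 0.37, against -0.23 to 0.22 for the 78. Only LARS2, a mitochondrial leucyl-tRNA synthetase, lay outside with -0.72, but it was well above background in 3 of 12 channels, all of them monoculture, and the signal there was at least 1.04-fold that of co-culture. Of the 86 genes with a ratio on every array, 2 had the same sign on all 6, both lower in co-culture, EIF2B2 and EIF3C. That was 2.33%, against 4.67% of all genes.

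**Figure D1:**
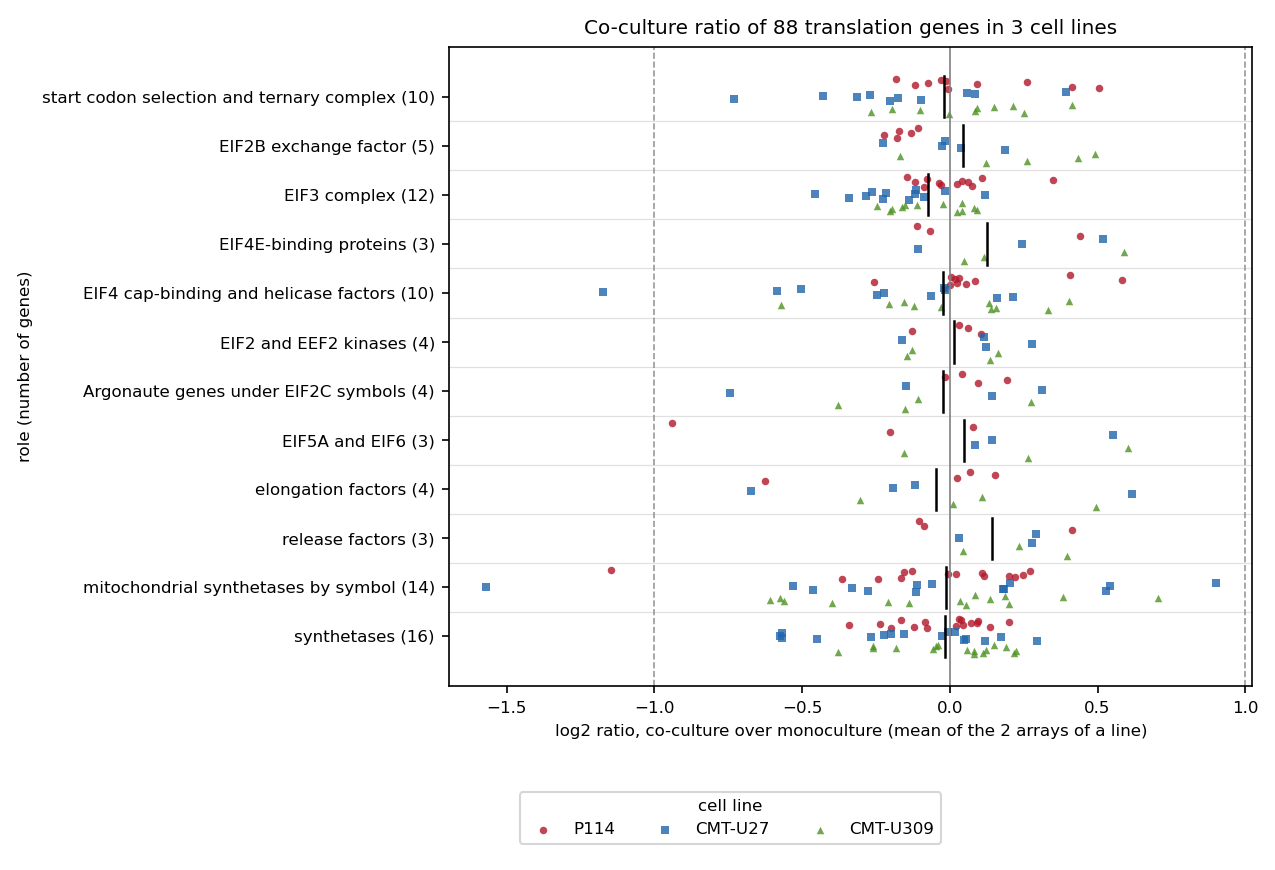
Mean log2 ratio of co-culture over monoculture for the 88 genes, grouped by role along the vertical axis. Each gene has 3 points, 1 per line (coloured, the mean of its 2 arrays on the brightest probe), a black bar marks the median of the role's 3-line means, and dashed lines mark -1 and 1, a 2-fold change; the bars of every role lie near 0 while single lines of a gene spread to both sides.

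The 3 lines did not move together. In 4 genes both P114 arrays were below 0 while the other 4 arrays were above it (EEF2, EIF1, EIF6 and ETF1; 4.65% of 86, against 5.14% of all genes), and in 8 genes the order was turned round (EIF2C3, EIF2D, EIF2S3, EIF4E1B, HARS2, KARS, RARS2 and TARS; 9.30%, against 3.54%). EEF2, the translocase of elongation, had log2 ratios of -0.76 and -0.49 in P114, 0.38 and 0.85 in CMT-U27, and 0.56 and 0.42 in CMT-U309. Its second probe, well above background in 11 channels, did not show this pattern, with -0.15 and 0.32, 0.26 and -0.40, and 0.02 and 0.47. EIF2S3, the gamma subunit of EIF2 that binds GTP and the initiator tRNA, went the other way with 0.43 and 0.40 in P114, -0.99 and -0.47 in CMT-U27, and -0.34 and -0.19 in CMT-U309. The test over 3 lines gave 0.16 ± 0.21 (SE, n = 3, adjusted p = 0.772) for EEF2 and -0.19 ± 0.18 (adjusted p = 0.688) for EIF2S3 in limma. The difference between lines was not tested, since a line has 1 pair of RNAs.

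**Figure D2:**
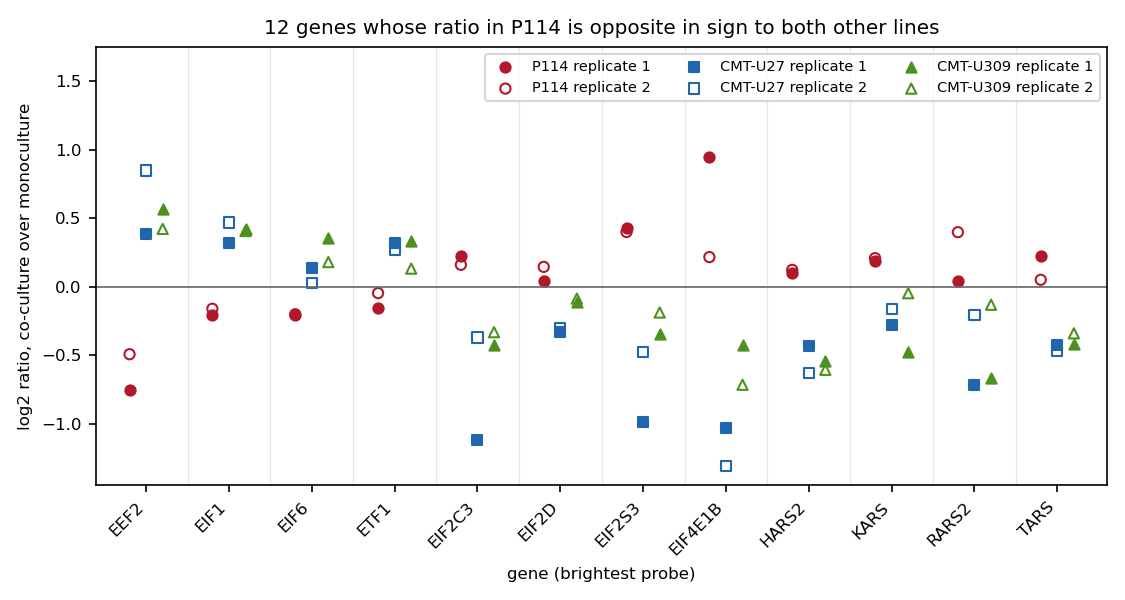
Log2 ratios of co-culture over monoculture on each of the 6 arrays for the 12 genes whose P114 arrays lie on the other side of 0 from the other 4. Colours mark the lines, filled points are replicate 1 (co-culture in Cy5) and open points replicate 2 (co-culture in Cy3); HARS2, for example, is at 0.10 and 0.12 in P114 and between -0.63 and -0.43 in the others.

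Without P114, 15 of the 88 genes passed an adjusted p under 0.05 over CMT-U27 and CMT-U309 (limma, n = 2 lines), 5 higher and 10 lower in co-culture. The shares were 5.68% and 11.4%, against 9.75% and 6.99% of all genes, so both directions together lay near the share of all genes. Lower calls were the larger share among these genes and the smaller among all genes, and that difference was not tested. The higher genes were EIF5A (0.58 ± 0.10, adjusted p = 0.00356), EEF2 (0.55 ± 0.09, adjusted p = 0.00285), EIF4EBP1 (0.55 ± 0.09, adjusted p = 0.00289), EIF1 (0.40 ± 0.09, adjusted p = 0.0137) and the Argonaute gene EIF2C2 (0.29 ± 0.09, adjusted p = 0.0448). The lower genes were EIF2C3 (-0.56), HARS2 (-0.55), EIF2S3 (-0.50), RARS2 (-0.43), TARS (-0.41), EIF4E (-0.39), LARS (-0.38), EIF3E (-0.35), EIF4A2 (-0.33) and EIF2A (-0.31), with adjusted p from 0.00645 to 0.0473. All of these changes were under 2-fold, and only LARS2 (-1.09) passed the thresholds of the study's methods, 1.14% of the 88 against 4.38% of all genes. Leaving out CMT-U27 or CMT-U309 instead gave 0 calls. With 2 lines the spread rests largely on the value shared across probes. A line entered as the mean of its 2 arrays, so disagreement between its dye swaps is not in the SE. EIF5A, for example, had 0.17 and 1.04 in CMT-U309. The second probe of EEF2 did not show its pattern over the lines. Over 3 lines, probes above background differed in sign for EIF4E, LARS, EIF2S3, EIF2A and EIF4A2, but not for EIF5A, EIF1, RARS2 or TARS.

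Levels between lines differed widely. The level is the log2 of the median-scaled signal, set between samples within a probe and never between probes. At an adjusted p under 0.05 of the F test over lines, 66 of 88 genes (75%) differed, against 62.1% of all genes; among genes well above background in all channels it was 63 of 78 (80.8%) against 72.2%. CMT-U27 had the highest level of the 3 lines in 49 genes (55.7%, against 40.2% of all genes), and in 43, 42 and 47 after quantile normalization, another background correction with Aquantile normalization, and no scaling. CMT-U309 had the lowest level in 46 (52.3%, against 37.4% of all genes), but in only 30, 27 and 10 with those settings, so no line is called lowest for the set as a whole. Among genes well above background in all channels the shares of the set and of all genes lay nearer to each other: 52.6% of the 78 against 47.8% of all such genes were highest in CMT-U27, and 51.3% against 42.2% were lowest in CMT-U309. Higher in P114 than in CMT-U27 were 12 genes (20.2% of all genes), and 32 were lower (27.5% of all genes). Higher in CMT-U27 than in CMT-U309 were 38 (31.6% of all genes) and lower 13 (21.5% of all genes). Between P114 and CMT-U309, 23 were higher (18.6% of all genes) and 14 lower (14.5% of all genes) in P114.

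How many genes stood higher or lower depended on the scaling between channels. After quantile normalization P114 against CMT-U309 turned to 13 higher and 20 lower, and with the other background correction (normexp, which adds an offset to each signal) and Aquantile normalization to 9 and 16, so no direction is given for this pair as a whole. For CMT-U27 against CMT-U309 the same alternatives gave 26 and 21, and 25 and 17. For P114 against CMT-U27 they gave 12 and 30, and 11 and 26. Calls that held under these scalings and the main one numbered 24 genes lower (27.3%, against 22.0% of all genes) and 10 higher (11.4%, against 17.4%) in P114 than in CMT-U27. They numbered 22 genes higher (25%, against 22.9%) and 12 lower (13.6%, against 18.4%) in CMT-U27 than in CMT-U309, and 9 higher (10.2%, against 11.7%) and 12 lower (13.6%, against 13.1%) in P114 than in CMT-U309. Unless stated otherwise, the genes named as higher or lower below are among these. The run with no scaling of channels was not one of these scalings. It ended some of the calls, for example P114 minus CMT-U309 for EIF4E (0.05), LARS (0.24) and EIF3H (0.36). The background correction with an offset also made many of the differences of the named genes over 1.5 times smaller. Examples are EIF2C4, where CMT-U27 minus CMT-U309 went from 1.31 to 0.57, EIF2B2 (1.03 to 0.57), EIF4E (1.04 to 0.62), EIF4ENIF1 (1.53 to 0.92) and LARS (1.36 to 0.89).

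With so few samples the counts also rested on single RNAs. Without the co-culture of CMT-U27, 2 genes were higher in P114 than in CMT-U27, and without its monoculture 7 were higher and 20 lower. Without the co-culture of CMT-U309, 12 genes were higher in P114 than in CMT-U309, and without its monoculture 9. Without the monoculture of CMT-U309, 23 genes were higher in CMT-U27 than in CMT-U309. The 13 genes lower in CMT-U27 than in CMT-U309 became 6 and 8 without the co-culture and the monoculture of CMT-U27, and 7 and 5 without those of CMT-U309. The fit shares the spread of genes of like brightness, and without that trend the F test called 39 genes in place of 66.

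**Figure D3:**
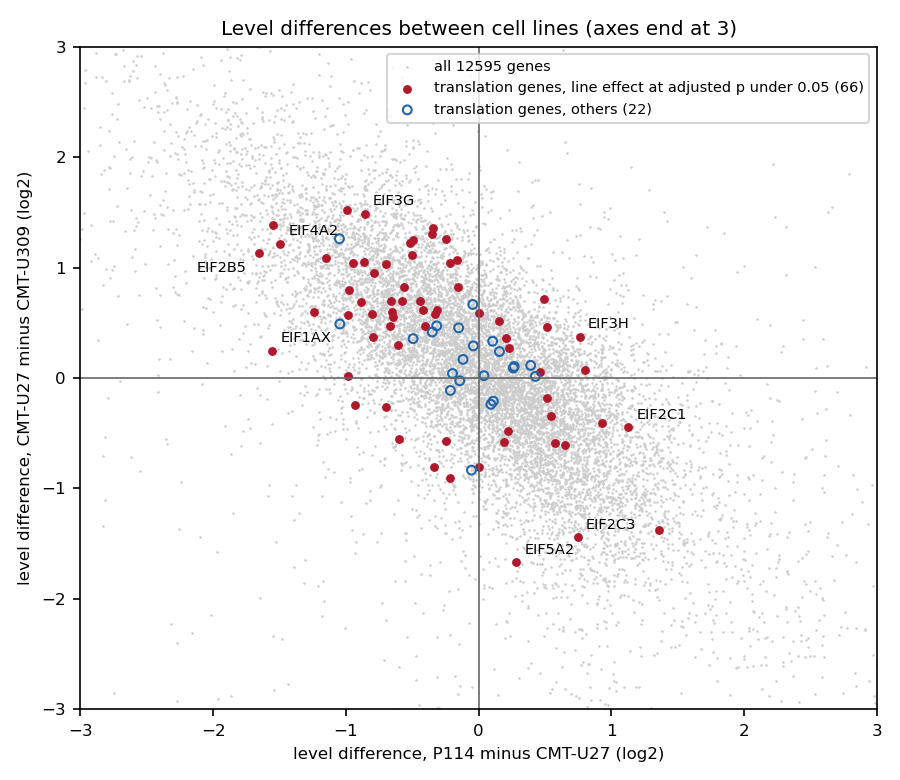
Difference in log2 level of P114 minus CMT-U27 (horizontal) and of CMT-U27 minus CMT-U309 (vertical) for the 88 genes, over all genes tested in grey; filled red points are the 66 genes called by the F test, open blue points the other 22, and both axes end at 3. The axes share CMT-U27, which by itself draws the points along a falling diagonal; EIF4A2, EIF5 and EIF2B5 lie far to the left and high.

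The factors that select the start codon and form the ternary complex gave 7 of 10 genes that differed between lines by the F test. Over all genes 62.1% did so, and 72.2% of those well above background in all channels. The counts of the other roles below stand against the same shares, and no difference from them was tested. EIF1AX, which opens the small subunit for scanning, had log2 levels of 10.91 in co-culture and 10.92 in monoculture of P114, 12.51 and 12.43 in CMT-U27, and 12.30 and 12.15 in CMT-U309. P114 lay below both, by 1.56 ± 0.13 (SE) against CMT-U27 (limma, adjusted p = 7.8e-06) and by 1.31 ± 0.13 against CMT-U309 (adjusted p = 5.4e-05), and no sample of P114 overlapped the others. EIF5, the GTPase activator of EIF2, stood at 12.72 and 12.22 in P114, 13.97 and 14.07 in CMT-U27, and 12.76 and 12.51 in CMT-U309. It was 1.55 ± 0.16 lower in P114 than in CMT-U27 (adjusted p = 3.6e-05) and 1.39 ± 0.16 higher in CMT-U27 than in CMT-U309 (adjusted p = 6.3e-05), with the same signs on its second probe. EIF2S3 was lower in P114, at 12.52, than in CMT-U27 (13.45) and CMT-U309 (13.69), with adjusted p of 0.0077 and 0.0033, the first lost without the monoculture of CMT-U27 (-0.53, adjusted p = 0.130). EIF1AD and EIF2D were likewise lower in P114 than in CMT-U27, while EIF1B and EIF5B were higher.

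Among the same factors the alpha subunit of EIF2, EIF2S1, which carries the regulatory phosphorylation site, differed little in level. It stood between 10.92 and 11.21 in the 6 samples, with an adjusted p of 0.54 for the F test, and EIF2A, a separate factor that can deliver the initiator tRNA, at 11.55 to 11.61 in the 3 lines (adjusted p = 0.92). In co-culture EIF2S1 had a mean log2 ratio of -0.07 ± 0.11 (adjusted p = 0.824), from -0.31 to 0.22 on the 6 arrays. EIF1, the guard of start codon choice, had ratios of -0.21 and -0.16 in P114, 0.32 and 0.47 in CMT-U27, and 0.42 and 0.41 in CMT-U309. EIF5 had the highest mean ratio here, 0.22 ± 0.13 (adjusted p = 0.554), which rested on 1 P114 array at 1.15 where its dye swap gave -0.14. The lowest was EIF2A with -0.23 ± 0.12 (adjusted p = 0.509).

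EIF2B, the exchange factor that recharges EIF2, had 4 of 5 subunit genes that differed between lines. EIF2B5, the catalytic subunit, had levels of 9.20 and 9.38 in P114, 11.04 and 10.85 in CMT-U27, and 9.87 and 9.75 in CMT-U309. P114 was 1.66 ± 0.15 below CMT-U27 (adjusted p = 1.3e-05) and CMT-U27 was 1.13 ± 0.15 above CMT-U309 (adjusted p = 0.00015), and the second probe gave -1.09 and 1.03. EIF2B2 was also highest in CMT-U27, at 12.18, against 11.49 in P114 and 11.15 in CMT-U309. EIF2B1 was higher in CMT-U27 (8.68) than in CMT-U309 (7.85), a call lost without either monoculture (0.72 without that of CMT-U27, 0.55 without that of CMT-U309). EIF2B4 was instead higher in P114 (12.09) than in CMT-U27 (11.54), by 0.54, and lost its call without either sample of CMT-U27 (0.55 without the co-culture, 0.53 without the monoculture). EIF2B3 differed by no more than 0.21 between lines (F test adjusted p = 0.52). In co-culture the subunits did not move as a unit: EIF2B2 was below 0 on all 6 arrays, from -0.33 to -0.01 with a mean of -0.19 ± 0.11 (adjusted p = 0.536), whereas EIF2B1 had a mean of 0.12 ± 0.15 (adjusted p = 0.763) and reached 0.48 and 0.50 in CMT-U309.

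The EIF3 complex, the scaffold that binds EIF4G and the small subunit, had 10 of 12 genes that differed between lines. The lowest level lay in CMT-U309 for 10 of 12, though for 6 after quantile normalization, 4 with normexp and Aquantile, and 3 with no scaling. Of all genes 37.4%, 33.0%, 31.9% and 9.8% were lowest there in the same order. With normexp and Aquantile the complex, at 33.3%, thus lay near all genes. EIF3G showed the largest range, with levels of 13.95 and 14.07 in P114, 14.93 and 14.81 in CMT-U27, and 13.42 and 13.34 in CMT-U309. CMT-U27 was 1.49 ± 0.14 above CMT-U309 (adjusted p = 1.3e-05). EIF3E and EIF3H, a pair of subunits, had their highest level in P114: EIF3E stood at 15.90, 15.40 and 14.69 and EIF3H at 16.05, 15.29 and 14.91 in P114, CMT-U27 and CMT-U309. P114 exceeded CMT-U309 by 1.21 ± 0.16 for EIF3E (adjusted p = 0.00036) and 1.14 ± 0.15 for EIF3H (adjusted p = 0.00028), or 0.69 and 0.58 with normexp and Aquantile. P114 also exceeded CMT-U27 for EIF3H, a call lost without the co-culture of CMT-U27 (0.68, adjusted p = 0.0514), while for EIF3E that difference (0.50) did not hold under other scalings. EIF3B, EIF3C, EIF3G and EIF3J were lower in P114 than in CMT-U27, so subunits of 1 complex ranked the lines differently. EIF3B, for example, was 0.97 ± 0.14 below (adjusted p = 0.00026). Co-culture ratios of the 12 genes ran from -0.22 for EIF3E to 0.03 for EIF3G. EIF3H had a mean of -0.17 ± 0.12 (adjusted p = 0.591) and EIF3B of 0.02 ± 0.11 (adjusted p = 0.949).

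EIF4A2, a helicase that unwinds mRNA leaders, gave the most repeated line difference of the set, since 10 probes measured it. Its brightest probe had levels of 12.50 and 12.50 in P114, 13.74 and 14.24 in CMT-U27, and 12.70 and 12.85 in CMT-U309. All 10 probes were lower in P114 than in CMT-U27, by 1.38 to 2.10 with a median difference of -1.65, and all 10 were higher in CMT-U27 than in CMT-U309, by 1.03 to 1.68, with each of these 20 differences past an adjusted p of 0.05. The probes bind 1 transcript, so they repeat the measurement and are not independent samples. EIF4A1, its close paralog and usually the main helicase of dividing cells, stood at 13.40, 13.30 and 13.54 in the 3 lines (F test adjusted p = 0.39) and so did not differ beyond its spread. That value rests on 1 probe, placed on another chromosome than the symbol has in the newer annotation, so the contrast of the paralogs is uncertain. In co-culture EIF4A1 had ratios of 0.37 and 0.44 in P114, 0.55 and -0.59 in CMT-U27, and 0.62 and 0.19 in CMT-U309, with a mean of 0.26 ± 0.12 (adjusted p = 0.501). EIF4A2 gave -0.22 ± 0.13 (adjusted p = 0.543), and its 10 probes ranged from -0.25 to 0.18, 0 of them past the thresholds.

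**Figure D4:**
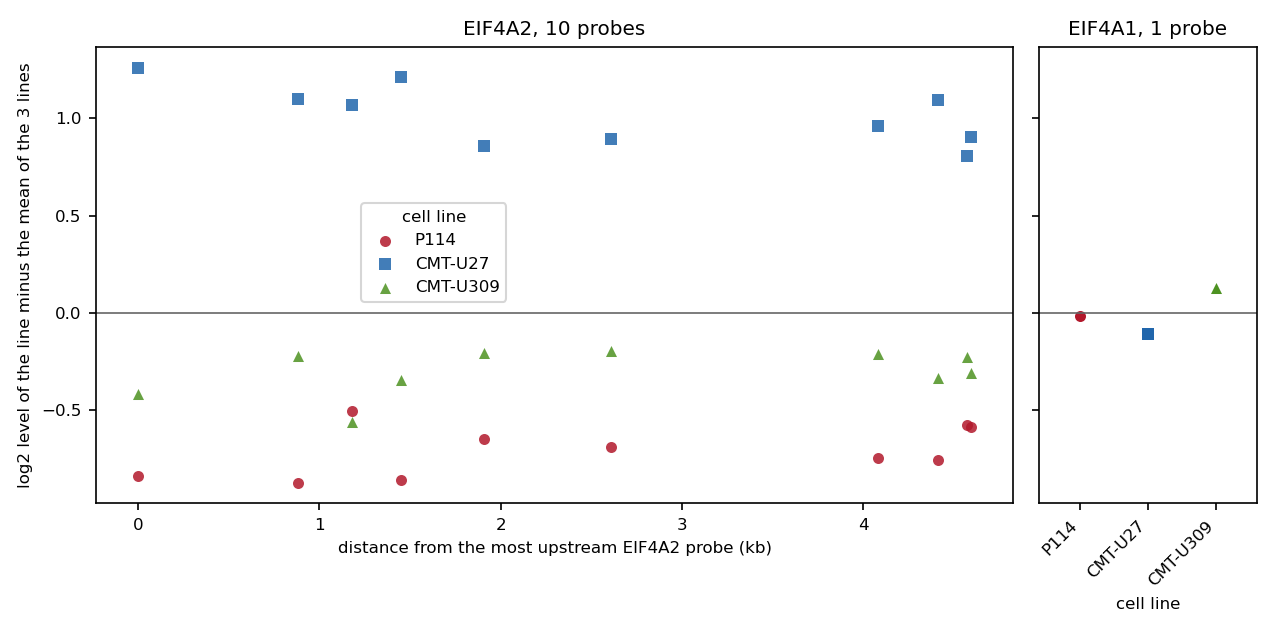
Log2 levels of the EIF4A1 probe and of the 10 EIF4A2 probes in the 3 lines, each probe relative to its own mean over the 3 lines; the EIF4A2 probes are placed by their distance in kb from the most upstream of them, and the EIF4A1 probe has a side panel. Every EIF4A2 probe peaks in CMT-U27, 1.38 to 2.10 above P114, and the 3 EIF4A1 points lie close together.

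Of the other cap-binding and helicase factors, 7 of 10 genes in the group including EIF4A1 and EIF4A2 differed between lines, where 62.1% of all genes did. EIF4E, the cap-binding protein itself, had levels of 10.55 and 10.54 in P114, 10.47 and 11.05 in CMT-U27, and 9.61 and 9.82 in CMT-U309. CMT-U309 lay below P114 by 0.83 ± 0.16 (adjusted p = 0.004) and below CMT-U27 by 1.04 ± 0.16 (adjusted p = 0.0005), while P114 and CMT-U27 overlapped. With no scaling of channels CMT-U309 lay 0.05 below P114, a difference no longer called. EIF4A3, the helicase of the exon junction complex, was lowest in CMT-U309 too (13.87, against 14.49 and 14.99), though its difference from P114 did not hold under other scalings. EIF4G3, a cap-complex scaffold, was higher in P114 (10.36) than in CMT-U27 (9.42), and EIF4H, a helper of EIF4A, was higher in CMT-U27 (14.01) than in P114 (13.43) by 0.58 (adjusted p = 0.008), a call lost with normexp and Aquantile (0.38 higher) and without either sample of CMT-U27 (0.58 higher in both cases). The co-culture ratio of EIF4E was -0.26 ± 0.13 (adjusted p = 0.519), and its second probe gave 0.21. EIF4E3 was well above background in 2 channels and EIF4E1B in 7, so their levels are uncertain.

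The proteins that hold EIF4E back all differed between lines (3 of 3). EIF4EBP1, the repressor that mTOR phosphorylates, had levels of 11.35 and 11.46 in P114, 11.88 and 11.36 in CMT-U27, and 12.82 and 12.23 in CMT-U309. CMT-U309 was 1.12 ± 0.18 above P114 (adjusted p = 0.0011) and 0.91 ± 0.18 above CMT-U27 (adjusted p = 0.002). In the same line EIF4E was lowest, so EIF4EBP1 and its target ranked in opposite order in CMT-U309. The other 2 genes, EIF4ENIF1 and EIF4EBP2, were lowest there as EIF4E was, except with no scaling of channels. EIF4ENIF1, which shuttles EIF4E into the nucleus, stood at 8.93, 9.91 and 8.39, and was 1.53 ± 0.17 higher in CMT-U27 than in CMT-U309 (adjusted p = 4.6e-05). EIF4EBP2 was at 10.07, 10.49 and 9.88, differences that did not hold under other scalings. EIF4EBP1 also had the lowest unadjusted p for co-culture among genes with 1 probe, with ratios of -0.33 and 0.11 in P114, 0.31 and 0.73 in CMT-U27, and 0.59 and 0.59 in CMT-U309. The mean was 0.33 ± 0.15 (unadjusted p = 0.046, adjusted p = 0.498 in limma, n = 3), and 5 of 6 arrays were above 0. EIF4EBP2 gave 0.10 ± 0.12 (adjusted p = 0.753) and EIF4ENIF1 0.13 ± 0.14 (adjusted p = 0.731).

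The kinases that turn translation down had their highest level in CMT-U27 in 4 of 4 genes, also under the other scalings run, and 2 passed the F test. Over all genes 40.2% were highest in that line, as were 47.8% of those well above background in all channels. The difference from these shares was not tested. EIF2AK4 (GCN2), which senses uncharged tRNA, stood at 9.58, 10.47 and 9.78 in P114, CMT-U27 and CMT-U309, and was 0.89 ± 0.14 lower in P114 (adjusted p = 0.00048) and 0.69 ± 0.14 lower in CMT-U309 (adjusted p = 0.002) than in CMT-U27, or 0.56 and 0.44 lower with normexp and Aquantile. EIF2AK1, the heme-regulated kinase, was 0.65 ± 0.18 lower in P114 than in CMT-U27 (adjusted p = 0.017), and 0.51 lower, no longer called, without the monoculture of CMT-U27. EIF2AK3 (PERK), which answers misfolded protein in the endoplasmic reticulum, ranged from 6.13 to 6.83 over the samples (F test adjusted p = 0.16), and EEF2K, the kinase of EEF2, from 5.43 to 6.03 (adjusted p = 0.22). Co-culture ratios were 0.0015 ± 0.18 for EIF2AK3, 0.01 ± 0.19 for EEF2K, 0.02 ± 0.15 for EIF2AK1 and 0.12 ± 0.11 for EIF2AK4, with adjusted p from 0.682 to 0.998. On single arrays EIF2AK3 ran from -0.65 to 0.46, the extremes coming from different lines.

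EIF5A, the hypusine-bearing factor that eases stalled elongation, had the widest co-culture spread among the genes above background. Its ratios were -1.30 and -0.58 in P114, -0.10 and 1.21 in CMT-U27, and 0.17 and 1.04 in CMT-U309, and its second probe repeated them with -1.20 and -0.80, 0.33 and 1.30, and 0.72 and 1.39. The mean over lines was 0.07 ± 0.25 (adjusted p = 0.926). Replicate 2 was higher than replicate 1 in every line, so the dye orientation moved with the ratio. EIF5A levels, 10.44, 10.17 and 10.08, did not differ beyond their spread (F test adjusted p = 0.58), but rested on the RNA of P114: it was 0.50 below CMT-U27 without the monoculture of P114 (adjusted p = 0.0075) and 1.02 above it without the co-culture. Its paralog EIF5A2, with restricted expression in normal tissue, had the widest range between lines of the genes well above background in all channels. Its levels were 6.34 and 6.27 in P114, 6.10 and 5.95 in CMT-U27, and 7.61 and 7.77 in CMT-U309. CMT-U309 was 1.67 ± 0.20 above CMT-U27 (adjusted p = 7.4e-05) and 1.39 ± 0.20 above P114 (adjusted p = 0.00058), with no overlap, and by 0.68 and 0.58 with normexp and Aquantile. EIF6, which keeps the large subunit free until it is needed, stood at 12.08, 12.68 and 12.39 and had co-culture ratios of -0.20 and -0.20 in P114, 0.14 and 0.03 in CMT-U27, and 0.35 and 0.18 in CMT-U309.

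**Figure D5:**
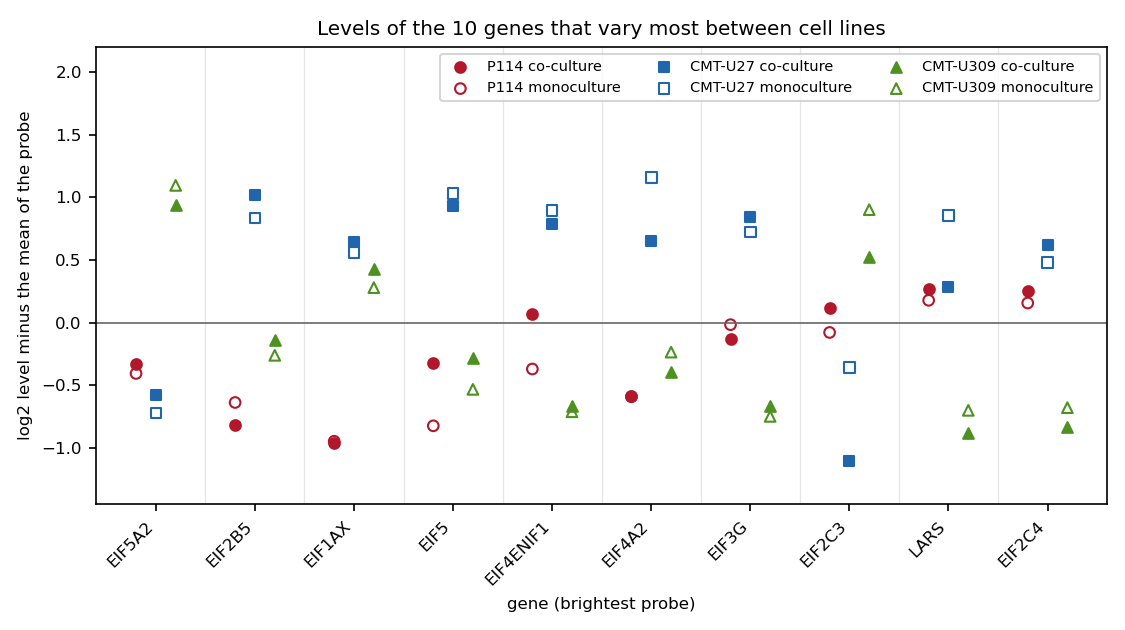
Log2 levels in the 6 RNA samples, co-culture and monoculture of each line, for the 10 genes with the largest range between lines among those well above background in all channels. Each is the log2 level minus the probe's mean over the samples. Filled points are co-culture and open points monoculture. In EIF4A2, EIF5 and EIF2B5 both CMT-U27 samples lie above the other 4, and in EIF5A2 both CMT-U309 samples do.

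The elongation factors gave 3 of 4 genes that differed between lines, against 62.1% of all genes and 72.2% of those well above background in all channels. EEF1A1, which carries charged tRNA to the ribosome, had levels of 15.14, 15.30 and 14.47, with CMT-U309 lower than CMT-U27 by 0.83 ± 0.14 (adjusted p = 0.0009), or by 0.50 with normexp and Aquantile. Its 4 probes disagreed on the other lines, P114 minus CMT-U27 running from -0.16 to 1.19, and their co-culture ratios from -0.28 to 0.35, one of them (0.35) with an unadjusted p of 0.011. The gene has many processed copies, so its value is uncertain. EEF1D, part of the exchange factor of EEF1A, was higher in P114 (17.31) than in CMT-U27 (16.50; adjusted p = 0.0036), a call lost without the co-culture of CMT-U27 (0.75, adjusted p = 0.0566). EEF1E1, a small partner of the synthetase complex, was lower in P114 (11.20) than in CMT-U309 (12.16; adjusted p = 0.003). EEF2 stood at 13.57, 13.18 and 13.07 and did not pass the test (F test adjusted p = 0.22). Mean co-culture ratios were 0.02 ± 0.12 for EEF1A1, -0.12 ± 0.14 for EEF1D and -0.21 ± 0.15 for EEF1E1, whose arrays ranged from -0.82 to 0.13.

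Among the release factors, GSPT2 had the lowest unadjusted p of the brightest probes. Its co-culture ratios were 0.90 and -0.07 in P114, 0.91 and -0.36 in CMT-U27, and 0.71 and 0.08 in CMT-U309, with a mean of 0.36 ± 0.13 (unadjusted p = 0.0195, adjusted p = 0.498). Every line had a high ratio with co-culture in Cy5 and one near or below 0 with co-culture in Cy3, so the value moved with the dye. GSPT1, which recruits ETF1 and helps it act, had -0.0045 ± 0.11 on its brightest probe (adjusted p = 0.991). Its second probe gave 0.63, with -0.46 and 0.42 in P114, 1.09 and 0.79 in CMT-U27, and 1.16 and 0.76 in CMT-U309, so the probes of this gene disagreed by 0.63. ETF1, which recognises stop codons, had ratios of -0.16 and -0.05 in P114 and from 0.13 to 0.33 on the other arrays, with a mean of 0.14 ± 0.13 (adjusted p = 0.687). In level, GSPT2 was lower in CMT-U27 (7.74) than in P114 (8.31; adjusted p = 0.015) and CMT-U309 (8.32; adjusted p = 0.012). With the replicate block, that is, with the arrays paired by dye orientation, both calls were lost (adjusted p = 0.0749 and 0.0650), as they were without any 1 sample of CMT-U27 (0.52 and 0.64 below P114, 0.52 and 0.65 below CMT-U309, without its co-culture and monoculture) and, against CMT-U309, without either of its samples (0.56 and 0.61). ETF1 was 0.58 lower in CMT-U27 (8.56) than in CMT-U309 (9.13; adjusted p = 0.015), though its second probe had the opposite sign and the call was lost without the monoculture of CMT-U27 (0.46) or either sample of CMT-U309 (0.51 without the co-culture, 0.65 without the monoculture). GSPT1 did not differ beyond its spread (F test adjusted p = 0.079).

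The synthetases charge tRNAs with their amino acids, and 14 of 16 cytosolic and other genes without the mitochondrial suffix differed between lines. Of the 16, 10 were highest in CMT-U27 (40.2% of all genes), and 8 after quantile normalization (38.3%) or with normexp and Aquantile (38.0%). Those that held under the scalings ranked the lines in different orders. KARS, LARS, NARS, QARS and RARS were higher in CMT-U27 than in CMT-U309. LARS stood at 10.37 and 10.28 in P114, 10.38 and 10.96 in CMT-U27, and 9.22 and 9.40 in CMT-U309, and CMT-U27 was 1.36 ± 0.17 above CMT-U309 (adjusted p = 0.00011). GARS, MARS and SARS were instead lower in CMT-U27 than in CMT-U309. GARS stood at 13.86, 14.46 and 15.02 in P114, CMT-U27 and CMT-U309, and all 4 of its probes gave this order, P114 lying 1.11 to 1.40 below CMT-U309. SARS stood at 11.30, 11.30 and 12.11, and CMT-U309 exceeded each of the others by 0.81 ± 0.13 (adjusted p = 0.0013 against P114 and 0.00065 against CMT-U27). AARS was lower in P114 (12.65) than in CMT-U27 (13.63) and CMT-U309 (13.62). WARS, known to respond to interferon gamma, stood at 10.21, 10.85 and 10.30, and its difference between P114 and CMT-U27 (-0.65 ± 0.16, adjusted p = 0.0082) did not hold with normexp and Aquantile (-0.41) or without the co-culture of CMT-U27 (-0.50).

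No synthetase passed a threshold for co-culture over 3 lines. The 16 genes ran from -0.23 for TARS to 0.10 for WARS and SARS. TARS had ratios of 0.22 and 0.05 in P114, -0.43 and -0.47 in CMT-U27, and -0.42 and -0.34 in CMT-U309. WARS had 0.02 and -0.42 in P114, 0.44 and 0.15 in CMT-U27, and 0.29 and 0.15 in CMT-U309, with a mean of 0.10 ± 0.13 (adjusted p = 0.76). LARS had a mean of -0.22 ± 0.14 (adjusted p = 0.564). DARS showed how far 1 gene can depend on its probe: the brightest of its 4 probes gave -0.19 ± 0.14 (adjusted p = 0.597) and another 0.46, with all 6 arrays of that probe between 0.16 and 0.76 and an unadjusted p of 0.0023. Its 4 probes had the widest spread of the set, 0.65.

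Of the 14 mitochondrial synthetases by symbol, 7 were well above background in all channels and 8 differed between lines, where 62.1% of all genes did. CMT-U27 was highest in 10 under each of the 4 scalings run, where 38.0% to 40.2% of all genes were. CMT-U309 was lowest in 10, or in 9, 8 and 2 with quantile normalization, normexp and Aquantile, and no scaling. Of all genes 37.4%, 33.0%, 31.9% and 9.8% were lowest there in the same order. RARS2 had levels of 10.46 and 10.24 in P114, 11.36 and 11.82 in CMT-U27, and 10.80 and 11.19 in CMT-U309, and was 1.24 ± 0.18 lower in P114 than in CMT-U27 (adjusted p = 0.00032). HARS2 stood at 7.31, 7.47 and 6.40, with CMT-U309 1.07 below CMT-U27 (0.36 with normexp and Aquantile), and EARS2 at 7.22, 6.70 and 6.24. CARS2 went the other way and was 0.81 ± 0.14 higher in CMT-U309 than in CMT-U27 (adjusted p = 0.0011). In co-culture HARS2 had ratios of 0.10 and 0.12 in P114, -0.43 and -0.63 in CMT-U27, and -0.55 and -0.61 in CMT-U309, with a mean of -0.33 ± 0.18 (adjusted p = 0.524). RARS2 had -0.21 ± 0.15 (adjusted p = 0.588), EARS2 0.15 ± 0.20 (adjusted p = 0.79), and IARS2 0.22 ± 0.13 (adjusted p = 0.548), which came mostly from 0.65 and 0.44 in CMT-U27.

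The symbols EIF2C1 to EIF2C4 are older names of Argonaute genes, which act in small RNA silencing and are not initiation factors, and all 4 differed between lines. EIF2C3 had the widest pattern, with 10.93 and 10.74 in P114, 9.71 and 10.46 in CMT-U27, and 11.34 and 11.72 in CMT-U309, and was 1.44 ± 0.20 lower in CMT-U27 than in CMT-U309 (adjusted p = 0.00021). EIF2C4 was turned round, at 8.73, 9.08 and 7.77, and 1.31 ± 0.16 higher in CMT-U27 than in CMT-U309 (adjusted p = 8.6e-05). Leaving out 1 sample did not end either call. EIF2C1 stood at 9.10, 7.97 and 8.41, and EIF2C2 at 12.26, 11.75 and 11.93. In co-culture EIF2C3 had 0.23 and 0.16 in P114, -1.12 and -0.37 in CMT-U27, and -0.42 and -0.33 in CMT-U309, with a mean of -0.31 ± 0.16 (adjusted p = 0.519). EIF2C2 had 0.14 and -0.17 in P114 and from 0.27 to 0.32 on the other 4 arrays (mean 0.19 ± 0.11, adjusted p = 0.554). EIF2C1 gave -0.07 ± 0.13 and EIF2C4 0.03 ± 0.13.

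Genes around the translation machinery were read from lists of its regulators and partners. In co-culture none of 5 lists had a member past the methods' thresholds in either direction: mTOR and cap control (14 measured genes), the integrated stress response (15), poly(A)-binding and accessory factors (15), mitochondrial translation factors (8) and other synthetase genes (8). The numbers with an unadjusted p under 0.05 were 2, 3, 2, 1 and 1, where 9.45% of all genes had one. In level, 8 of 14, 13 of 15, 13 of 15, 6 of 8 and 6 of 8 passed the F test. Over all genes 62.1% did so, and 72.2% of those well above background in all channels. In the lists 12, 13, 15, 8 and 7 genes were that bright. The first list and the last 2 lay near these shares, and no difference from them was tested. In the stress response list, which holds the transcription factor ATF4 and genes that respond to this pathway, 12 of 15 genes were lower in CMT-U27 than in CMT-U309 (21.5% of all genes) and 1, PPP1R15B, was higher, with a median difference of -1.23 against 0.09 over all genes, and 12 were also lower with the other 3 scalings; 9 of 15 were lower in P114 than in CMT-U309 (14.5% of all genes). ASNS, which makes asparagine, stood at 13.06, 12.57 and 14.91 in P114, CMT-U27 and CMT-U309. ATF4 itself stood at 16.09, 16.16 and 15.83 and did not pass the F test (adjusted p = 0.158). In the poly(A)-binding and accessory list 10 of 15 genes were higher in CMT-U27 than in CMT-U309 (31.6% of all genes) and 1 lower, though 6 higher with each of the other 3 scalings.

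Agreement between probes sets the limit of these values. Of 46 genes with several probes above background in all channels, the sign of the mean co-culture ratio differed between probes in 24, and the median spread was 0.17, larger than the median size of a ratio, 0.11. Line differences were steadier: all probes of a gene had the same sign in 36 of 46 genes for P114 against CMT-U27, in 34 for P114 against CMT-U309 and in 37 for CMT-U27 against CMT-U309. Of the 177 probes, 12 had an unadjusted p under 0.05 for co-culture, all 12 higher (6.78%, against 5.81% of all probes higher and 4.12% lower), and 2 of them, of IARS2 and GSPT2, were well above background in none of the 12 channels.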

How the data were processed

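RNA of 3 canine mammary tumor lines, in co-culture with MDSCs or in monoculture, was hybridised by the authors to 6 arrays, a colour for each RNA, with the dyes exchanged. The deposited scanner files hold Agilent Feature Extraction intensity values per spot, background-subtracted and dye-normalized by that software. The labels name its version 10.7.3.1 and the file headers 10.10.1.1. The deposited value table holds log10 ratios, which equal the ratio of the scanner files, turned to co-culture over monoculture, within 4.997e-06.

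Channels were brought to the same median processed intensity, control and outlier spots were dropped, only probes whose mean spot exceeded 10 in at least 1 channel were kept (40874 of 43603), and the spots of a probe were averaged on the log2 scale. The exchanged-dye arrays of a line were averaged, and the mean of 3 lines was tested against 0 in limma 3.58.1 (R 4.3.3, eBayes with trend, Benjamini-Hochberg over all probes). Levels were fitted over 6 RNA samples with line and condition as terms. A slide holds 1 line, so no fit with slide as a term could be had. The number of arrays limits the precision. Fits were tested on simulated data.

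The genes, roles and lists were chosen with earlier results of these data known. Named are a list of core factors, the genes with the 2 highest and 2 lowest ratios of each role, the 10 widest line ranges, and genes whose probes differed in sign by over 0.5. Apart from the core factors, these rules used only probes well above background in all channels. Others were named after their values were seen. One gene of the kinase family is not reported here. Of the symbols, 4 probes (2 genes) whose description names no synthetase were left out. Columns of no sample numbered 0.

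Replicate 1 has co-culture in Cy5 and replicate 2 in Cy3. Deviations of same-numbered arrays from their line mean correlated between lines with r = 0.36, 0.58 and 0.48, so the numbers pair the arrays by dye orientation. Alternatives were other background corrections and scalings, the deposited ratios, other filters, the methods' t-test, eBayes without trend, the replicate block, and each line or sample left out.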

Additional observations from a re-analysis of the deposited data

Results flagged for a closer look

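For 16 of the 49 genes named by rule, both arrays of 1 line lay on one side of 0 and both arrays of another on the other side, and the difference between lines was not tested. The values are mean log2 ratios of co-culture over monoculture. Where P114 was lower, EEF2 stood at -0.624 there, at 0.615 in CMT-U27 and at 0.493 in CMT-U309. EIF1 stood at -0.184, 0.393 and 0.413, EIF6 at -0.203, 0.084 and 0.266, and ETF1 at -0.103, 0.293 and 0.233 in the same order. Between P114 and CMT-U309 alone, EIF5A gave -0.940 and 0.604, EIF2B3 -0.132 and 0.434, EIF2B4 -0.222 and 0.260, and GSPT1 -0.087 and 0.043.

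Where P114 was higher, EIF2C3 stood at 0.192 there, at -0.744 in CMT-U27 and at -0.378 in CMT-U309. EIF2S3 stood at 0.413, -0.731 and -0.266, HARS2 at 0.110, -0.532 and -0.576, RARS2 at 0.221, -0.463 and -0.399, and TARS at 0.135, -0.450 and -0.378 in that order. EIF3B gave 0.109 in P114 and -0.024 in CMT-U309. Between CMT-U27 and CMT-U309, EIF2C4 gave 0.141 and -0.152, and EIF5 gave -0.099 and 0.250. Beside these values, the exchanged-dye arrays of P114 correlated with r = -0.39 over all probes, and the part of this in the pattern was not tested.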

How the results depend on the processing

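Co-culture calls stayed at 0 under every alternative but 1: without P114, 15 genes passed an adjusted p under 0.05 and 1 the thresholds of the methods, so leaving out lines gave 0 to 15 and 0 to 1. The median ratio ran from -0.039 to -0.00404 when a line was left out. The replicate block gave 0 co-culture calls and 67 level calls by the F test, and with it 2 of 147 level differences of the named genes lost and 4 gained their call. Leaving out 1 RNA sample gave 49 to 75 F calls. It gave 2 to 14 genes higher and 20 to 38 lower in P114 than in CMT-U27, 9 to 30 and 10 to 20 against CMT-U309, and 23 to 49 and 5 to 15 for CMT-U27 against CMT-U309. The 2 came without the co-culture of CMT-U27, the 20 without its monoculture, and the 9, 23 and 5 without the monoculture of CMT-U309. Without the eBayes trend, F calls fell to 39, and the pairs gave 4 higher and 18 lower (P114 against CMT-U27), 6 and 8 (P114 against CMT-U309) and 7 lower in CMT-U27 than in CMT-U309. Without scaling of channels, which moves the median of all genes to -0.44, -0.69 and -0.22, the same pairs gave 2 and 58, 1 and 55, and 24 and 20. Quantile normalization gave 13 genes higher in P114 than in CMT-U309 and 21 lower in CMT-U27 than in CMT-U309. Normexp with loess and Aquantile gave 9 higher in P114 and 25 higher in CMT-U27 than in CMT-U309. Apart from the fewer samples left in, the cause was not tested.

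The 147 level differences of 49 named genes gave 2349 values. Of these, 2038 kept their call or lack of one, 189 lost and 99 gained a call. Another 23 turned, that is, changed sign with a call in the main fit or in the alternative. In all, 120 values changed sign, the others of them with no call in either fit and counted among the 2038. Without scaling, P114 minus CMT-U309 turned for DARS (-0.11), EEF1A1 (-0.11), EEF2K (-0.62), EIF1 (-0.47), EIF2A (-0.71), EIF2B1 (-0.51), EIF2B2 (-0.44), EIF2B4 (-0.57), EIF2C1 (-0.0925), EIF2C2 (-0.45), EIF2S1 (-0.72), EIF3G (-0.14), EIF4EBP2 (-0.58), EIF4ENIF1 (-0.24), EIF4H (-0.66) and GSPT1 (-0.40), and P114 minus CMT-U27 for EIF2A (-0.43) and SARS (-0.47). EEF1D turned to -0.52 for CMT-U27 minus CMT-U309 with normexp. With the median over probes, EEF1A1 turned to 0.38 for P114 minus CMT-U27 and ETF1 to 0.0415 for CMT-U27 minus CMT-U309. When 1 sample was left out, EIF5A in P114 ran from -0.50 to 1.02 against CMT-U27 and from -0.41 to 1.11 against CMT-U309, the negative ends without the monoculture of P114. Of 685 co-culture values, 670 kept their side of the threshold and 15, all without P114, gained a call.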
